A study of Rattus norvegicus with 23 samples.

Results

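Histone deacetylases and sirtuins were followed in the CA3 field of the rat hippocampus. The members were every probe set whose gene symbol, in the platform's annotation, was Hdac2, Hdac3, Hdac4, Hdac5, Hdac6, Hdac11, Sirt1, Sirt2, Sirt3 or Sirt5. They came to 10 probe sets of 9 genes, among 31042 probe sets that are not controls and 14217 genes named by a probe set of 1 symbol. Hdac5 had 2 probe sets, the other 8 genes had 1 each, and Sirt1 was not analysed here, since no probe set in the annotation used bore its symbol alone. A row with the symbol SIRT2 in capitals and the gene identifier of another species lay at the floor of the scale and was not counted as a member.

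The study asked which transcripts of CA3 differ with age and which differ with the loss of spatial learning. It used male Long-Evans rats with 1 Affymetrix Rat Genome 230 2.0 array per animal and no treatment. Young rats were 6 months old (n = 9). Aged rats were 24 to 26 months old and were divided by a learning index from the Morris water maze into aged unimpaired rats (n = 6), whose scores were like those of young rats, and aged impaired rats (n = 8), whose scores were worse. The aged rats came from a supplier at an earlier age and were kept in the university's vivarium until testing, and all rats were housed singly. CA3 was dissected from each brain, so neurons, glia and vessels were measured together, and fewer cells of a type and less RNA per cell cannot be told apart.

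Lysine acetylation neutralises the charge of histone tails and loosens their hold on DNA, and deacetylases remove the acetyl group again. Classical histone deacetylases use zinc, and sirtuins use NAD+ and so tie deacetylation to the energy state of the cell. In the hippocampus the class I enzyme Hdac2 is best known as a brake on memory genes, and Sirt2 is known as a major deacetylase of oligodendrocytes and myelin. These enzymes are also regulated by their position in the cell, by phosphorylation and by cofactors, none of which an expression array measures.

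Values are log2 expression values, so a difference of 1 would be a doubling. Levels of different probe sets depend on the probes and are not set against each other. Array medians over all probe sets that are not controls lay between 3.39 and 3.46. They were 3.388 to 3.418 in young, 3.412 to 3.425 in aged unimpaired and 3.429 to 3.459 in aged impaired rats. Every aged impaired array thus had a higher median than every other array. Of the CA3 markers listed, Socs2 and Iyd lay near the floor in all groups and were not counted as measured. The 9 counted, such as the kainate receptor subunit Grik4 (9.15 in young rats) and Nrip3 (12.13), were well above it. The mean level over these 9 was 10.49 ± 0.08 (young, SD), 10.36 ± 0.08 (aged unimpaired, SD) and 10.27 ± 0.14 (aged impaired, SD). The CA1 marker Wfs1 (5.70 to 9.06) and the dentate gyrus marker Prox1 (6.24 to 8.19) were also measured in every rat and varied widely.

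Of the 10 member probe sets, 9 passed the filter on low values, for which a log2 value of 4 had to be reached by 6 or more arrays. Their values lay above 4 on every array. The second Hdac5 probe set lay at 2.26 to 2.77 in all rats, close to the floor, and was not tested. In aged impaired against young rats, 1 of the 9 was called at an adjusted p of at most 0.05 (limma with Benjamini-Hochberg adjustment), beside 9.76% of all 14647 probe sets tested. It was called lower, as were 5.88% of all, while 3.88% of all were called higher. In aged unimpaired against young rats 0 of 9 were called (limma, with 2 of 9 at an unadjusted p of at most 0.05), beside 2.06% of all (0.696% lower). In aged impaired against aged unimpaired rats it was 0 of 9 (limma, 1 of 9 unadjusted), beside 0.778% of all, and for both aged groups together against young 0 of 9 (limma, 3 of 9 unadjusted), beside 6.9% (3.34% higher and 3.56% lower). No member had groups that did not overlap, beside 0.853% of all for aged impaired against young, 0.935% for aged unimpaired against young and 0.287% between the aged groups. The shares of all tested probe sets with an unadjusted p of at most 0.05 were 26.3%, 16.8%, 15.2% and 23.6% in the same order. By adjusted p, the members' count in aged impaired rats was thus near the background. At an unadjusted limma p of at most 0.05 it was 1 of 9, beside the 26.3% of all. The median difference of the 9 was -0.04 in aged impaired rats and -0.07 in aged unimpaired rats, against -0.017 and -0.002 for all tested probe sets. Both aged groups were set against the same young rats.

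**Figure D1:**
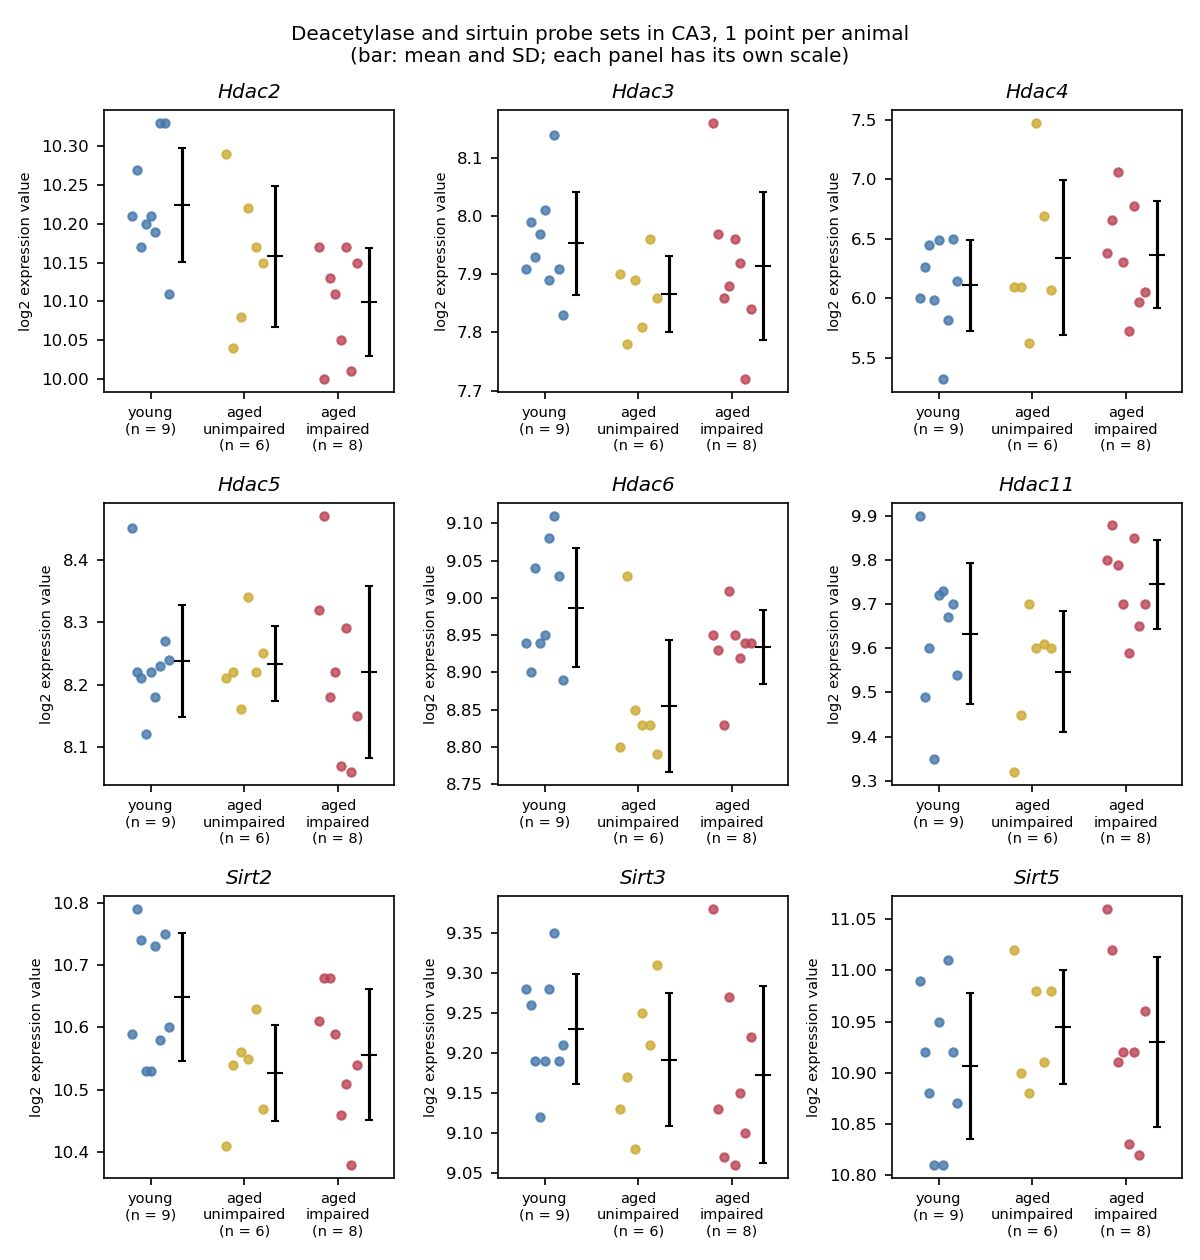
Log2 expression value of the 9 tested probe sets in each rat, by group, with the mean and SD as a bar beside the points; the horizontal spread of points is for legibility only and each panel has its own scale. The Hdac2 values of the 8 aged impaired rats lie at or below 10.17, under the young median of 10.21, while the groups overlap in every panel.

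Among the class I enzymes, which act in nuclear corepressor complexes, Hdac2 was the member that fell. Its values ran from 10.11 through a median of 10.21 to 10.33 in young rats, from 10.04 through 10.16 to 10.29 in aged unimpaired rats and from 10.001 through 10.12 to 10.17 in aged impaired rats. All 8 aged impaired rats lay below the young median and 4 of 8 below every young rat, the lowest of which was young rat 9 at 10.11. Hdac2 was 1.09-fold lower in aged impaired than in young rats (log2 difference -0.13 ± 0.04 SE, limma adjusted p = 0.0432), with group means of 10.10 ± 0.07 (SD, n = 8) and 10.22 ± 0.07 (SD, n = 9). In aged unimpaired rats the mean was 10.16 ± 0.09 (SD, n = 6), between the other groups, and neither difference passed (limma, -0.07 ± 0.04 SE against young, adjusted p = 0.449, and -0.06 ± 0.04 SE for aged impaired against aged unimpaired, adjusted p = 0.568).

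The Hdac2 call was marginal. The difference stayed negative in every alternative run, between -0.139 and -0.105, but the adjusted p crossed 0.05 with no filter (0.0698), with each array centred on its median (0.0558), with array weights (0.0582), with the replicate number as a block (0.0572) and with a gap between control rows as a covariate (0.107). That gap is a log2 difference between control rows whose names are out of register with their values, so what it measures is not known. It was 2.22 ± 0.1 (young, SD), 2.28 ± 0.09 (aged unimpaired, SD) and 2.14 ± 0.09 (aged impaired, SD). Leaving out single rats ended the call in 12 of 23 cases. Without aged impaired rat 2, 3, 4, 5 or 7 the adjusted p lay between 0.0537 and 0.088, without aged unimpaired rat 8 it was 0.0516, and without young rat 1, 2, 4, 5, 7 or 8 it lay between 0.0508 and 0.0792. With aged impaired rats 1 and 2, which had the lowest gap, both left out, the difference was -0.120 and the adjusted p 0.0658.

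**Figure D2:**
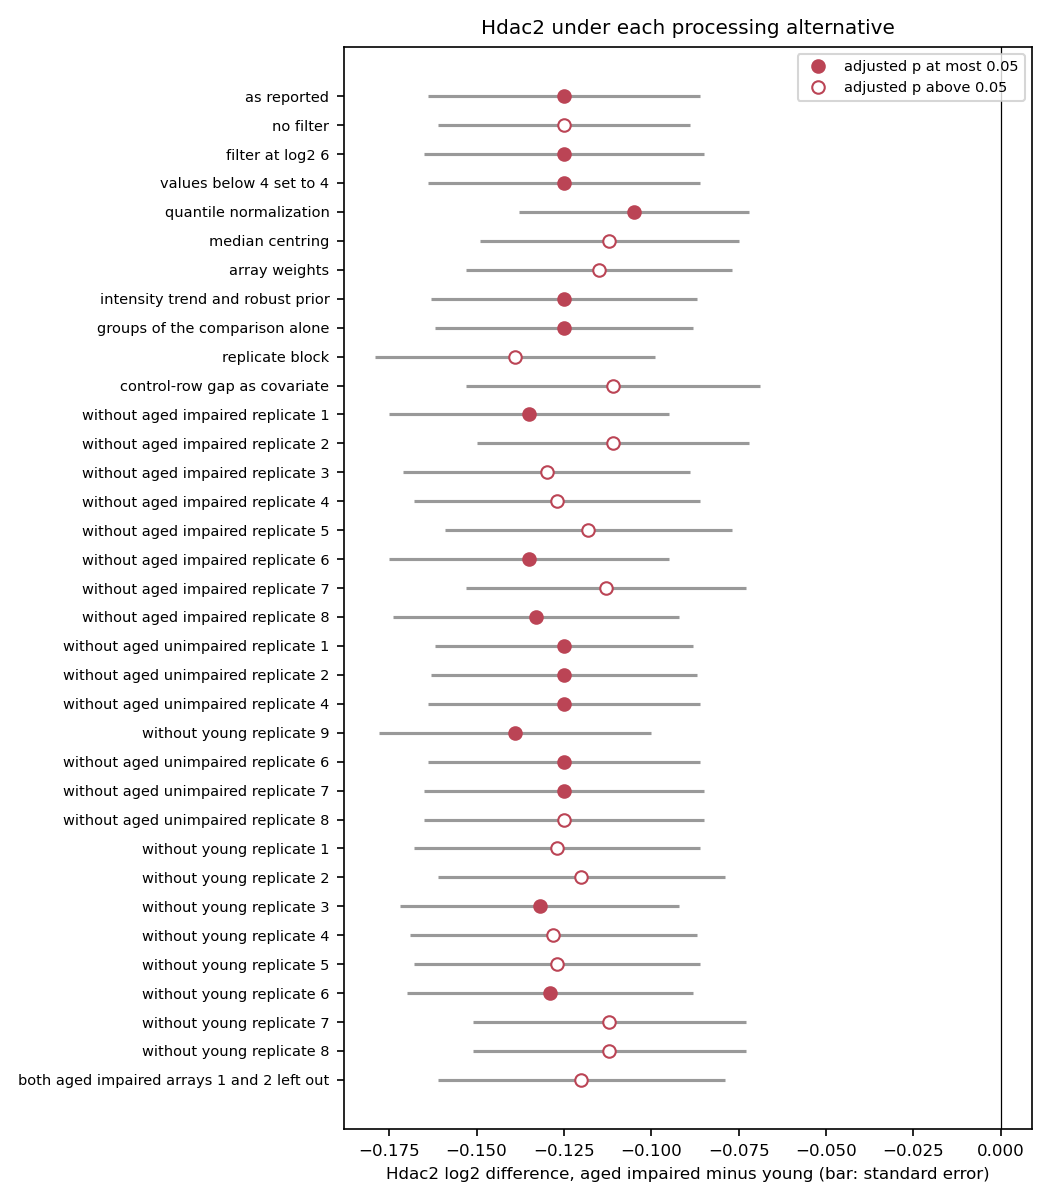
Log2 difference of Hdac2 between aged impaired and young rats as reported and under each alternative, with its standard error as a bar; filled points have an adjusted p of at most 0.05. Estimates lie between -0.139 and -0.105 throughout, and filled and open points are mixed.

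Markers of neurons, CA3, CA2, astrocytes and microglia also changed on the same arrays, counted by their brightest probe set. Of all tested probe sets, 5.88% were called lower and 3.88% higher in aged impaired rats. In aged unimpaired rats the shares were 0.696% and 1.37%. Of 13 neuronal markers measured, 4 fell in aged impaired rats (median -0.10) and 2 in aged unimpaired rats (median -0.05), and their mean level was 11.78 to 11.91 in young, 11.63 to 11.82 in aged unimpaired and 11.61 to 11.83 in aged impaired rats. By a dimmer probe set alone, Rbfox3 was also called lower in aged impaired rats and Syn1 in aged unimpaired rats. Of 9 CA3 markers, Nrip3, Chgb, Dkk3, Grik5 and Mas1 fell in aged impaired rats (median -0.21), with a mean level of 10.37 to 10.60 in young and 9.98 to 10.48 in aged impaired rats. In aged unimpaired rats the median of the CA3 list was -0.13 and its level 10.24 to 10.44. A dimmer probe set of Bok was called lower in both aged groups, while its brightest was not. The limma adjusted p of the dimmer one was 0.0382 in aged impaired and 0.0158 in aged unimpaired rats. Of 6 CA2 markers, 3 were measured. Pcp4 and Rgs14 fell in aged impaired rats. Amigo2 rose in aged unimpaired rats. It was lower in aged impaired than in aged unimpaired rats (-0.60 ± 0.14 SE, limma adjusted p = 0.0489). Of 5 CA1 markers measured, 0 were called against young by limma. The median of the CA1 list was 0.44 in aged impaired and 0.21 in aged unimpaired rats. Its mean level was 5.84 to 7.99 in young, 7.27 to 7.67 in aged unimpaired and 6.81 to 8.65 in aged impaired rats.

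Some markers of astrocytes and most of those of microglia rose in both aged groups. Of 10 astrocyte markers, 4 rose in aged impaired rats (median 0.13), among them Gfap (1.54-fold, limma adjusted p = 0.0007), and 2 in aged unimpaired rats (median 0.19). A dimmer probe set of Aqp4 was also called higher in aged impaired rats. The astrocyte level was 10.39 to 10.67 in young, 10.62 to 10.87 in aged unimpaired and 10.59 to 10.91 in aged impaired rats. Of 11 microglial markers, 9 rose in aged impaired rats (median 0.71) and 8 in aged unimpaired rats (median 0.63). The microglial level was 7.17 to 7.60 in young, 7.75 to 8.14 in aged unimpaired and 7.72 to 8.48 in aged impaired rats. Of the microglial list, Cx3cr1 and Itgam were below the filter. The part of these shifts in the Hdac2 value was not tested.

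Hdac3, the catalytic subunit of the NCoR and SMRT complexes, did not pass in any comparison. Its levels ran from 7.83 through 7.93 to 8.14 in young, from 7.78 through 7.88 to 7.96 in aged unimpaired and from 7.72 through 7.90 to 8.16 in aged impaired rats, with broad overlap. Aged impaired rat 7 was the lowest and aged impaired rat 1 the highest of all. The difference was -0.04 ± 0.05 SE in aged impaired rats (95% interval -0.14 to 0.06, limma adjusted p = 0.634) and -0.09 ± 0.05 SE in aged unimpaired rats (-0.20 to 0.02, adjusted p = 0.421).

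The class IIa enzymes Hdac4 and Hdac5 shuttle between nucleus and cytoplasm with neuronal activity and hold down MEF2 transcription factors. Hdac4 was the most variable member. Its levels ran from 5.32 through 6.14 to 6.50 in young, from 5.62 through 6.09 to 7.47 in aged unimpaired and from 5.72 through 6.34 to 7.06 in aged impaired rats. Its standard deviation within groups was 0.49, more than that of 98.1% of all tested probe sets, where the median was 0.137. The aged means stood above the young mean by 0.26 ± 0.22 SE in aged impaired rats and 0.23 ± 0.24 SE in aged unimpaired rats (limma adjusted p = 0.493 and 0.681). The intervals, from -0.21 to 0.72 and from -0.27 to 0.73, leave room for a fold from 0.87 to 1.65 and from 0.83 to 1.66. Without aged unimpaired rat 6, at 7.47, the difference of that group was 0.003.

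Hdac5 was the member whose group means lay closest together. Its values ran from 8.12 through 8.22 to 8.45 in young, from 8.16 through 8.22 to 8.34 in aged unimpaired and from 8.06 through 8.20 to 8.47 in aged impaired rats. The group means were 8.24 ± 0.09, 8.23 ± 0.06 and 8.22 ± 0.13 (SD). The interval of the difference from young was -0.12 to 0.09 in aged impaired and -0.12 to 0.11 in aged unimpaired rats (limma adjusted p = 0.869 and 0.989), which bounds the fold between 0.92 and 1.08. Its spread was wider among aged impaired rats, where 1 of 8 lay above and 2 of 8 below every young rat.

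Hdac6, a class IIb enzyme that works mainly in the cytoplasm on alpha-tubulin, had its lowest group mean in aged unimpaired rats. The values ran from 8.89 through 8.95 to 9.11 in young, from 8.79 through 8.83 to 9.03 in aged unimpaired and from 8.83 through 8.94 to 9.01 in aged impaired rats. In the aged unimpaired group 5 of 6 rats lay below every young rat, and the exception, rat 2 at 9.03, lay within the young range. The difference from young was -0.13 ± 0.04 SE in aged unimpaired rats (interval -0.22 to -0.04, limma adjusted p = 0.103), with group means of 8.86 ± 0.09 (SD, n = 6) and 8.99 ± 0.08 (SD, n = 9), and did not pass. Without rat 2 it was -0.166 (adjusted p = 0.0313), so that the side of the threshold rested on this rat. In aged impaired rats the difference from young was -0.05 ± 0.04 SE (adjusted p = 0.394), and aged impaired rats stood 0.08 ± 0.04 SE above aged unimpaired rats (adjusted p = 0.4), although 8 of 8 lay above the median of the latter.

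Hdac11, the sole class IV enzyme, had the largest difference between the aged groups among the 9 members. The values ran from 9.35 through 9.67 to 9.90 in young, from 9.32 through 9.60 to 9.70 in aged unimpaired and from 9.59 through 9.74 to 9.88 in aged impaired rats. It stood 0.20 ± 0.07 SE higher in aged impaired than in aged unimpaired rats (interval 0.05 to 0.34, a fold of 1.03 to 1.27), and 4 of 8 aged impaired rats lay above every aged unimpaired rat. The unadjusted p was 0.0122 and the limma adjusted p 0.182, so it did not pass. Young rats lay between, at 9.63 ± 0.16 (SD, n = 9) against 9.74 ± 0.10 (SD, n = 8) and 9.55 ± 0.14 (SD, n = 6), and spanned nearly the range of both aged groups. The differences from young were 0.11 ± 0.06 SE and -0.09 ± 0.07 SE (adjusted p = 0.285 and 0.569).

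Among the sirtuins, the mainly cytoplasmic Sirt2 had the largest difference between both aged groups together and young rats, apart from Hdac4. Its values ran from 10.53 through 10.60 to 10.79 in young, from 10.41 through 10.55 to 10.63 in aged unimpaired and from 10.38 through 10.56 to 10.68 in aged impaired rats. Of the young rats, 4 lay between 10.73 and 10.79 and 5 between 10.53 and 10.60, a split read from these values and not tested. The highest aged value was 10.68. The differences from young were -0.12 ± 0.05 SE in aged unimpaired (limma adjusted p = 0.231) and -0.09 ± 0.05 SE in aged impaired rats (adjusted p = 0.219). For both aged groups together the difference was -0.11 ± 0.04 SE (interval -0.20 to -0.02, adjusted p = 0.125), which did not pass. Aged impaired and aged unimpaired rats differed by 0.03 ± 0.05 SE (interval -0.08 to 0.14).

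Markers of oligodendrocytes, in which Sirt2 is known to be abundant, went in different directions. Of 15 measured, 2 fell in aged impaired rats and 1 in aged unimpaired rats by their brightest probe set, and the list's medians were 0.05 and -0.05. The proteolipid Mal was 1.25-fold lower in aged impaired and 1.37-fold lower in aged unimpaired rats (limma adjusted p = 0.0422 and 0.0287). Ugt8, which makes the galactolipids of myelin, was 1.39-fold lower in aged impaired rats (limma adjusted p = 0.0335). In aged unimpaired rats Ugt8 was 1.47-fold lower, which did not pass (limma adjusted p = 0.0538). For both aged groups together Mal and Ugt8 were called lower (-0.39 ± 0.09 SE and -0.51 ± 0.12 SE, limma adjusted p = 0.0105 and 0.0141). The brightest probe set of myelin basic protein, Mbp, stood at 0.03 ± 0.04 SE in aged impaired rats. A dimmer Mbp probe set was called higher (0.35 ± 0.09 SE, limma adjusted p = 0.0224). Mog stood at 0.01 ± 0.08 SE in aged impaired rats. The mean level of the list was 9.95 to 10.30 in young, 9.88 to 10.20 in aged unimpaired and 9.88 to 10.30 in aged impaired rats, and of its genes with a probe set Olig2 was below the filter. The part of these markers in the Sirt2 values was not tested.

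The mitochondrial sirtuins showed small differences with narrow intervals. Sirt3, the main deacetylase of the mitochondrial matrix, ran from 9.12 through 9.21 to 9.35 in young, from 9.08 through 9.19 to 9.31 in aged unimpaired and from 9.06 through 9.14 to 9.38 in aged impaired rats. Its differences from young were -0.06 ± 0.04 SE (interval -0.15 to 0.03) and -0.04 ± 0.05 SE (interval -0.14 to 0.06) in aged impaired and aged unimpaired rats (limma adjusted p = 0.429 and 0.743). Sirt5, which removes succinyl, malonyl and glutaryl groups rather than acetyl groups, ran from 10.81 through 10.92 to 11.01 in young, from 10.88 through 10.95 to 11.02 in aged unimpaired and from 10.82 through 10.92 to 11.06 in aged impaired rats. Sirt5 differed from young by 0.03 ± 0.04 SE and 0.04 ± 0.04 SE (intervals -0.05 to 0.10 and -0.04 to 0.13, adjusted p = 0.711 and 0.655). The fold of Sirt5 in either aged group was thus bounded between 0.96 and 1.09.

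**Figure D3:**
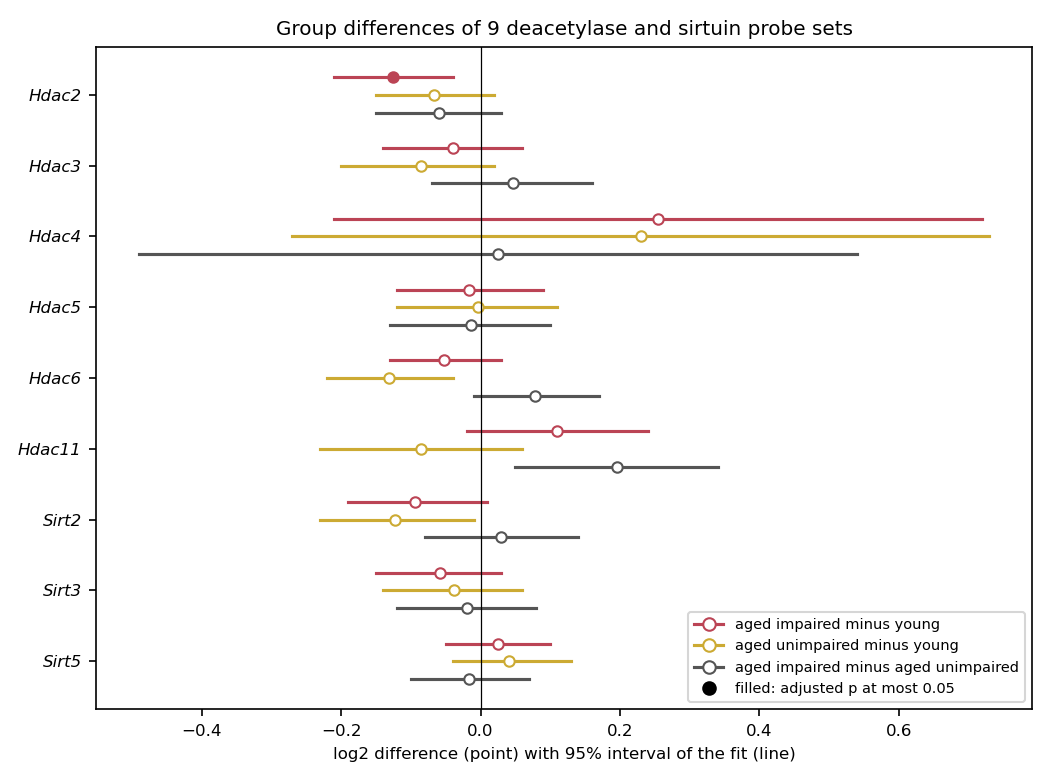
Log2 difference of each tested member (point) with the 95% interval of the fit (line), for aged impaired minus young, aged unimpaired minus young and aged impaired minus aged unimpaired rats. The Hdac2 difference of -0.13 in aged impaired rats carries the single filled point, and the Hdac4 intervals are the widest.

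The members were mostly tightly measured. The standard deviation within groups was 0.07 to 0.13 for the 8 members other than Hdac4, below the median of 0.137 over all tested probe sets. Only 8.0%, 8.5% and 9.5% of tested probe sets varied less than Sirt5, Hdac6 and Hdac2. The difference seen for Hdac2 is smaller than the standard error of the Hdac4 difference.

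Each member's nearest neighbours were taken as the 3 named genes with the highest Pearson r over the 23 arrays, on deviations from the group means, among 8726 genes. They are the best of many and are given as a description only, with array quality and dissection shared by all genes of an array. The nearest to Hdac2 were Cfap20 (r = 0.84), Cyb5r4 (0.84) and Usp14 (0.83). The nearest to Hdac5 were Mbd3, a subunit of the NuRD deacetylase complex (0.89), Cds1 (0.87) and Mapk4 (0.87). For Sirt2 they were the acetyltransferase Kat2b (0.81), the receptor kinase Ddr1 (0.81) and clusterin, Clu (0.80). For Sirt5 they were Glrx3 (0.86), Fkbp2 (0.82) and Rheb (0.82). For Hdac3 they were Lsm4, Tmem50b and Clptm1 (0.82, 0.82 and 0.81), for Hdac4 Rragc, Arf4 and Pir (0.82, 0.81 and 0.81), and for Sirt3 Mfn1, Fig4 and Nupr2 (0.79, 0.78 and 0.77). For Hdac11 they were Tmem192, Slc30a9 and Med6 (0.80, 0.78 and 0.76), and for Hdac6, whose best match was the weakest, Gpc6, Atxn3 and Tex261 (0.75, 0.69 and 0.68).

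Among the members themselves, the 36 pairs had an r of -0.34 to 0.72 on the same scale, with a median of 0.24. The highest were those of Hdac5 with Sirt5 (0.72) and with Hdac11 (0.62), and of Sirt3 with Sirt5 (0.59). The lowest was that of Hdac4 with Hdac6.

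The regulatory sequence in front of the genes was described for the members with an entry in the RefSeq promoter table (GRCr8), 9 of the 10 listed, Sirt1 included and Hdac11 not. Only the 250 bases before the annotated start were used. The letters GGGCGG (GC box) stood on either strand in 7 of 9 members against 30.5% of all 33469 gene starts in the table, CCAAT in 6 of 9 against 34%, the E-box CACGTG in 2 of 9 (Hdac5 and Sirt1) against 5.59%, and TATAAA in 0 of 9 against 12.9%. The median number of CpG sites was 17 in the members and 5 over the table. The median GC content was 62.0% in the members and 51.2% over the table, with Sirt2 the lowest member at 50%. These matches are a description of letters and were not related to the expression values. The sequences of Hdac2, Hdac6 and Sirt2 are shown because these were the 3 members with an unadjusted p of at most 0.05 for both aged groups against young. They are written 5′ to 3′ on the gene's strand, with matches to the 4 motifs on either strand in capitals. Hdac2 lies at chr20:42102877-42103126 and holds 1 GC box. Hdac6 lies at chrX:17222925-17223174 and holds 4 GC boxes and 2 CCAAT boxes. Sirt2 lies at chr1:93181222-93181471 and holds 2 CCAAT boxes. All 3 are on the plus strand.
Hdac2: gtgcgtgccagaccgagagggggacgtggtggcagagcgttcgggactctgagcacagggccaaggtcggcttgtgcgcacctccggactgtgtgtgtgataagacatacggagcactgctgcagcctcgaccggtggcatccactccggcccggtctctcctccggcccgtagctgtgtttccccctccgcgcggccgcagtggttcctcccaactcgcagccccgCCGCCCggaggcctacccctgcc
Hdac6: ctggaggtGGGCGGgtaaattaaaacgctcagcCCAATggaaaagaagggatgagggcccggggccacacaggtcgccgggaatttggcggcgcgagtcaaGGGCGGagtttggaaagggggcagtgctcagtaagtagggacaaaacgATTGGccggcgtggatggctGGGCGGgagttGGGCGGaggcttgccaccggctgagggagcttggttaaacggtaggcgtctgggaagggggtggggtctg
Sirt2: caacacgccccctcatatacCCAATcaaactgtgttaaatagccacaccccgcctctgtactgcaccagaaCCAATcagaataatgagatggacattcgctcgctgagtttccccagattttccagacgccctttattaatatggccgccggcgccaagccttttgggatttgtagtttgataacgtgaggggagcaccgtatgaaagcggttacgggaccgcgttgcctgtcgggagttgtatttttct

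The wider acetylation machinery was described through 8 lists of 143 genes, of which 124 had a probe set and 104 passed the filter. In aged impaired rats 1 rose and 8 fell, or 8.65% in all, beside 3.88% of all probe sets higher and 5.88% lower. In aged unimpaired rats 1 rose and 0 fell, beside 1.37% higher and 0.696% lower. For both aged groups together 1 rose and 3 fell, or 3.85%, beside 6.9% of all. Between the aged groups 0 of 104 were called by limma (13 at an unadjusted p of at most 0.05), beside 0.778% of all. The lists' medians in aged impaired rats lay between -0.06 and 0.03, with -0.02 over all tested probe sets.

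Of 8 other deacetylases, 4 were measured, and Sirt6, a chromatin deacetylase linked to DNA repair, fell in aged impaired rats. Sirt6 was dim. Its values were 5.91 to 6.44 in young, 5.68 to 6.12 in aged unimpaired and 5.58 to 5.92 in aged impaired rats. The aged impaired and young ranges barely met. The log2 difference was -0.24 ± 0.07 SE (limma adjusted p = 0.0386), and -0.12 ± 0.08 SE in aged unimpaired rats (adjusted p = 0.475). The call held in 6 of 11 alternatives and without 14 of 23 single rats. Hdac1, the class I partner of Hdac2, stood at 0.02 ± 0.08 SE in aged impaired rats, Hdac8 at 0.00 ± 0.10 and Sirt7 at -0.06 ± 0.04, and Hdac7, Hdac10 and Sirt4 lay below the filter.

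Of 18 measured substrates and regulators of sirtuins, 2 fell in aged impaired rats and 0 rose (median 0.03). Acss2, which turns acetate into acetyl-CoA in cytoplasm and nucleus, had values of 9.74 to 10.02 in young, 9.57 to 9.79 in aged unimpaired and 9.39 to 9.75 in aged impaired rats. The young and aged impaired ranges met at their ends only. Acss2 was 1.21-fold lower in aged impaired rats (-0.27 ± 0.05 SE, limma adjusted p = 0.00222), stood at -0.15 ± 0.05 SE in aged unimpaired rats (adjusted p = 0.152) and fell for both aged groups together (-0.21 ± 0.04 SE, adjusted p = 0.00622). Sucla2, a subunit of mitochondrial succinyl-CoA synthetase, was 1.13-fold lower in aged impaired rats (-0.18 ± 0.05 SE, adjusted p = 0.0169). In aged unimpaired rats Sucla2 stood at -0.12 ± 0.05 SE (limma adjusted p = 0.208). It fell for both aged groups together (-0.15 ± 0.04 SE, limma adjusted p = 0.0272). That call held in 8 of 10 alternatives and without 21 of 23 single rats. The calls of Acss2 and Sucla2 in aged impaired rats held in all 11 alternatives and without any single rat.

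Of 9 measured partners of Hdac6, the alpha-tubulin Tuba4a fell (median of the list -0.06). It ran from 11.86 to 12.06 in young, from 11.73 to 11.93 in aged unimpaired and from 11.68 to 11.92 in aged impaired rats, and was 1.12-fold lower in the last (-0.16 ± 0.04 SE, limma adjusted p = 0.012), a call that also held in all 11 alternatives and without any single rat. In aged unimpaired rats it stood at -0.13 ± 0.04 SE (adjusted p = 0.112). For both aged groups together Tuba4a was called lower (-0.15 ± 0.03 SE, limma adjusted p = 0.013).

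Of 16 measured partners of the class IIa enzymes, Mef2a and the 14-3-3 protein Ywhag fell in aged impaired rats (median -0.04). Ywhag was 1.09-fold lower (-0.12 ± 0.03 SE, limma adjusted p = 0.027), and the call held in 8 of 11 alternatives and without 19 of 23 single rats. The brightest probe set of Mef2a was 1.08-fold lower (-0.12 ± 0.03 SE, adjusted p = 0.0198), but its 3 other measured probe sets stood at 0.00, 0.37 and 0.14 and were not called. The call held without any single rat but in 7 of 11 alternatives, with an adjusted p of up to 0.14. Of 20 corepressor subunits, the demethylase Kdm1a of the CoREST complex, which also holds Hdac2, fell 1.09-fold (-0.12 ± 0.03 SE, adjusted p = 0.0275; median -0.01), a call that held in 9 of 11 alternatives and without 21 of 23 single rats. Of 12 acetyl-lysine readers, Brd7 fell 1.14-fold (-0.19 ± 0.06 SE, adjusted p = 0.0432; median -0.02), a call that held in 7 of 11 alternatives and without 10 of 23 single rats.

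Of 14 acetyltransferases, 0 were called in aged impaired rats by limma (median -0.04, with 2 at an unadjusted p of at most 0.05), and Ep300 rose in aged unimpaired rats. Ep300, the co-activator p300, ran from 8.13 to 8.36 in young, from 8.28 to 8.56 in aged unimpaired and from 8.13 to 8.42 in aged impaired rats. It was 1.14-fold higher in aged unimpaired than in young rats (0.18 ± 0.05 SE, limma adjusted p = 0.0446), a call that held in 7 of 11 alternatives and without 8 of 23 single rats, and stood at 0.00 ± 0.04 SE in aged impaired rats. The aged groups differed by -0.18 ± 0.05 SE, which did not pass (adjusted p = 0.0719). Of 11 genes of NAD metabolism, which supplies the cofactor of sirtuins, Naprt rose 1.69-fold in aged impaired rats (0.76 ± 0.22 SE, adjusted p = 0.0325; median -0.02). Naprt, the enzyme of the first step from nicotinic acid to NAD+, was dim. Its values were up to 6.30 in young and 5.18 to 6.90 in aged impaired rats. The Naprt call held in 7 of 11 alternatives and without 15 of 23 single rats. The NAD kinase Nadk2 was called for both aged groups together alone (1.14-fold, adjusted p = 0.0406), a call that held in 7 of 10 alternatives and without 9 of 23 single rats (adjusted p up to 0.0915).

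**Figure D4:**
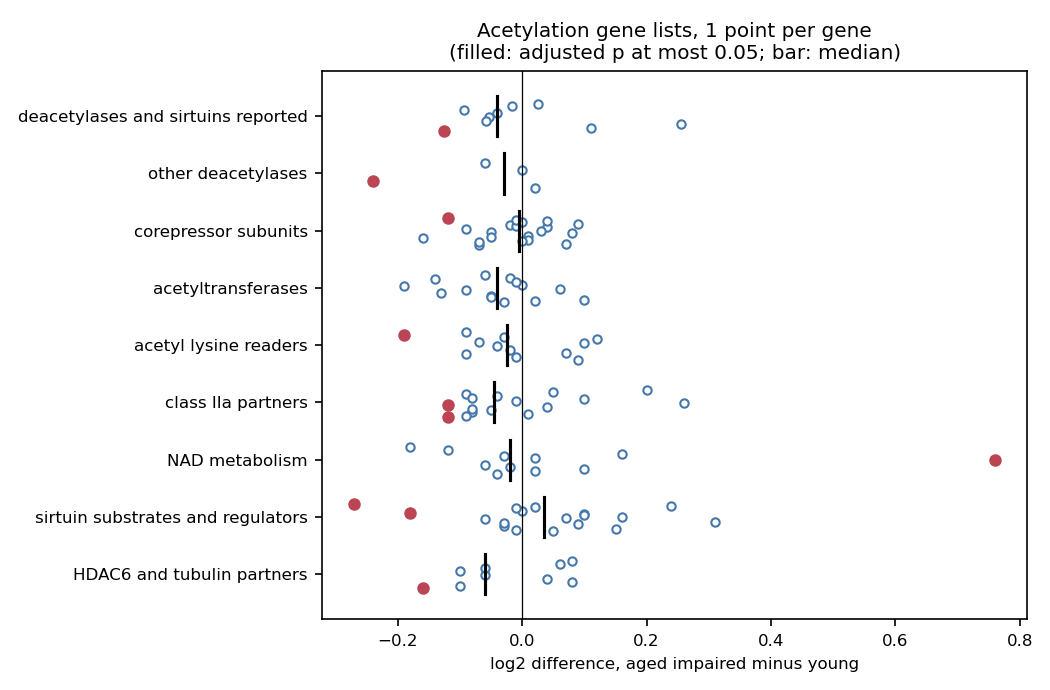
Log2 difference between aged impaired and young rats for the 9 members and for each gene of 8 acetylation lists (brightest probe set), with called genes filled and the median as a bar. Medians lie near 0 in every list, and called genes lie mostly to the left, apart from Naprt at 0.76.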

How the data were processed

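CA3 RNA of 23 rats was hybridised to 1 array each. Per the submitters' processing notes, the authors made the log2 expression values with GCRMA, of which no version is named. Of 31099 probe sets, 57 control rows were removed, and the rest spanned 2.195 to 14.685. Arrays have no read depth, and their number limits the precision. Genes were named from the platform's annotation where a probe set had 1 symbol (20826 probe sets; 436 had several and 9780 none). Gene identifiers of 9 of 10 member probe sets matched RefSeq's gene table (GRCr8), and Hdac6 was matched by symbol.

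The 14647 probe sets that reached log2 4 on 6 arrays or more were fitted with 1 mean per group by limma 3.58.1 in R 4.3.3 (20 residual and 2.35 prior degrees of freedom). Two-sided moderated tests were adjusted by Benjamini-Hochberg over all tested probe sets. In simulated data for aged impaired against young rats the test was checked for the recovery of known differences. The members and gene lists were chosen with earlier results of these data known. Named were all members, the list genes called against young (at most 4 per list and comparison, with leading markers), and each member's 3 nearest neighbours; Nadk2, called for the aged groups together, was added after its value was seen. Genes are represented by their brightest probe set.

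Alternatives were no filter, a filter at log2 6, a floor at 4, quantile normalization, median centring, array weights, an intensity trend with a robust prior, the compared groups alone, a replicate block, the gap between the control rows named GAPDH 5' and GAPDH M, whose names are out of register with their values, and each rat left out. Leaving out aged impaired rats 1 and 2 together was added after seeing the data. Animals numbered alike did not deviate together (20 pairs, median r -0.011, against 0.008 in 154 other pairs). The main fit did not pair them, and a low correlation cannot exclude shared handling of animals numbered alike.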

Additional observations from a re-analysis of the deposited data

Results flagged for a closer look

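In 30 combinations of probe set and group, 3 had a rat far from the rest of its group, where chance gives about 1 in 20. Hdac5 in young rat 1 was 8.45, with the next young rat at 8.27. The dim Hdac5 probe set in young rat 3 was 2.65, with the next at 2.47, close to the floor. Hdac6 in aged unimpaired rat 2 was 9.03, with the next of that group at 8.85, and this is the rat on which the side of the threshold rested in the report. No member's difference between the aged groups passed limma's adjusted test.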

How the results depend on the processing

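The members called in aged impaired against young rats numbered 1, and 0 with no filter, median centring, array weights, the replicate block, the control-row gap as covariate, and without aged impaired rats 1 and 2 together; with single rats left out the count ran from 0 to 1. It ran from 0 to 1 also in aged unimpaired rats and in both aged groups together, against 0 as reported, through Hdac6 without aged unimpaired rat 2. Between the aged groups it was 0 in every setting run.

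The acetylation list genes called in aged impaired rats numbered 9, with 5 under the replicate block and 3 with the gap as covariate (5 to 12 with single rats left out). In aged unimpaired rats the count of 1 became 0 with no filter, the compared groups alone, the replicate block and the gap, 2 with a filter at log2 6, quantile normalization, median centring and the intensity trend, and 3 with array weights (0 to 2 with rats left out). Between the aged groups it was 1 with array weights (0 to 2), and for both aged groups together 4 as reported, 2 with no filter and with the replicate block, and 7 with array weights (2 to 5).

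Differences near 0 changed sign without passing the test. Sirt5 in aged impaired rats was -0.011 without rats 1 and 2. Hdac5 in aged unimpaired rats was 0.006 with quantile normalization, 0.007 with median centring and 0.011 with the gap, and for both aged groups together 0.003 and 0.002 with the first pair. Between the aged groups Hdac3 was -0.004 without rats 1 and 2, Hdac4 -0.040 with the replicate block, -0.139 with the gap and -0.027 without rats 1 and 2, Hdac5 0.006 and Sirt3 0.005 with the replicate block, and Sirt2 -0.044 with the gap and -0.002 without rats 1 and 2. Hdac11 for both aged groups together was -0.003 with the replicate block and -0.004 without rats 1 and 2. With single rats left out, Hdac5 ran from -0.051 to 0.011 in aged impaired rats, from -0.025 to 0.024 in aged unimpaired rats, from -0.027 to 0.017 for both together and from -0.048 to 0.009 between the aged groups, where Hdac4 ran from -0.119 to 0.252 and Sirt3 from -0.050 to 0.004. Hdac11 for both aged groups together ran from -0.023 to 0.045. The cause of these changes was not tested.

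Of the calls in aged impaired rats, 39.7% were higher as reported, 50% with median centring, 50.4% without aged impaired rat 7, 28.8% without aged impaired rat 1 and 26.7% without aged impaired rats 1 and 2. Over all probe sets 1429 were called in aged impaired rats as reported, 870 with the replicate block, 937 with the gap and 768 with no filter, the lowest of the settings other than single rats left out, and 1705 with quantile normalization, the highest. In aged unimpaired rats 302 were called as reported, 86 with the replicate block, 126 with no filter and 672 with array weights. For both aged groups together 1010 were called, 509 with no filter, 527 with the replicate block and 1467 with array weights. Between the aged groups 114 were called, 222 with array weights, 180 with quantile normalization, 2 with no filter, 4 without aged impaired rats 1 and 2, 0 with the replicate block, the gap or the compared groups alone, and 2 to 447 with rats left out.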
